A study of Mus musculus with 6 samples.

Results

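The genes described here code for the core proteins and the regulators of pre-mRNA splicing, and were followed in mouse colonic crypts from adenomas, from colons under early chemical injury and from untreated colons. Members were the probe sets annotated to exactly 1 gene symbol that begins with Srsf, Hnrnp, Snrp, Sf3a or Sf3b, and 115 of the 22626 probe sets that are not controls met this rule. They represent 44 of the 12393 genes that have a probe set of their own, with 28 probe sets for SR proteins (Srsf), 50 for hnRNP proteins (Hnrnp), 15 for snRNP proteins (Snrp), 6 for SF3A subunits and 16 for SF3B subunits. A further 14 probe sets of these families carry several symbols and were left out by the rule, among them every probe set of Snrpa, Snrpd1, Snrpd2 and Hnrnpa3.

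RNA was measured on 6 single-colour Affymetrix arrays, 2 for each of 3 groups, which the labels call biological replicates. Tumor arrays held crypts of 12 pooled adenomas from 2 male mice that received azoxymethane (AOM, a colon carcinogen) at 12.5 mg/kg into the peritoneum at 6 to 8 weeks of age, then cycles of 2%, 1.5% and 1.0% dextran sulfate sodium (DSS, which injures the colonic epithelium) in drinking water. These crypts are labelled 90 days after AOM. DSS arrays held crypts from pooled distal colons of 2 male mice, 6 to 8 weeks old, after 2 days of 1% DSS, with no AOM. Control arrays held crypts from 2 untreated males labelled with the same age. All 3 groups carried the heterozygous Lgr5-lacZ allele, a reporter in a crypt stem cell gene, so there is no group without it. Age, carcinogen and repeated injury differ together between tumor and the other groups and cannot be told apart.

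Splicing removes introns from pre-mRNA. The spliceosome is built from small nuclear ribonucleoproteins (snRNPs), each an RNA with a ring of Sm proteins and some proteins of its own. Within the U2 snRNP, the SF3A and SF3B complexes help to fix the branch point of the intron. SR proteins bind exonic enhancers and favour the use of nearby splice sites. The hnRNP proteins coat nascent transcripts and often silence splice sites, so the balance between both families shifts the choice of exons. In the colon, as in other renewing epithelia, dividing crypt cells transcribe and splice at a high rate, and several of these factors are known for raised levels in tumors.

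Promoter sequences from RefSeq (GRCm38.p6) were matched for 39 of the 44 genes, and the 250 bases before the transcription start were searched on both strands for 4 short motifs. Of these genes 8 had over 1 start, and a member gene was counted if any of its windows held the motif. The letters CCGGAAG, the core bound by ETS factors, or their complement CTTCCGG occurred before 14 of the 39 genes (35.9%), against 10.2% of 17492 protein-coding genes. By family, all 3 of the SF3A genes held them, as did 3 of 4 matched SF3B genes, 3 of 7 snRNP genes, 3 of 9 SR genes and 2 of 16 hnRNP genes. The CCAAT letters stood before 19 of the 39 genes (48.7%, against 39.5% of protein-coding genes) and before 11 of the 16 hnRNP genes. The E-box CACGTG was found before 2 genes (5.13%, against 7.61%), and TATAAA before 5 genes (12.8%, against 13.7%). None of these 4 motifs contains another, and a match describes the letters only. The 100 bases before the start are shown for the SF3A genes and for Sf3b6, whose windows hold the ETS core, and for Hnrnpab, Snrpa1 and Srsf6, whose probe sets carry the clearest differences described further on. Capitals mark CCGGAAG or CCAAT on either strand. The windows are chr11:4160254-4160353, chr10:80798635-80798734, chr4:124714761-124714860, chr12:4817508-4817607, chr7:66060236-66060335 and chr2:162931408-162931507 on the plus strand and chr11:51606882-51606981 on the minus strand.
Sf3a1: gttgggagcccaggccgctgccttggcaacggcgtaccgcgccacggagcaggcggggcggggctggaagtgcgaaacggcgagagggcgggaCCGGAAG
Sf3a2: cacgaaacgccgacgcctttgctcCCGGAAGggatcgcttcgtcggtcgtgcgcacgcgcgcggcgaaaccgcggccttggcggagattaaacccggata
Sf3a3: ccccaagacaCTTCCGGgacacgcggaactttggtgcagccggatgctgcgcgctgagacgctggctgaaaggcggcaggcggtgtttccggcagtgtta
Sf3b6: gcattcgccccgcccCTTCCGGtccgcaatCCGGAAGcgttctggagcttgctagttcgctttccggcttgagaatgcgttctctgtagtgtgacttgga
Hnrnpab: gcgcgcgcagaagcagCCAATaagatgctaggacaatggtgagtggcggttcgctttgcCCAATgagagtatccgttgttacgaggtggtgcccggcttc
Snrpa1: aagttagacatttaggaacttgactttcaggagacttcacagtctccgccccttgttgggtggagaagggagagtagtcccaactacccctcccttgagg
Srsf6: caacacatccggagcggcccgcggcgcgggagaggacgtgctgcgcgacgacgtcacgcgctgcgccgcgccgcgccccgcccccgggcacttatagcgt
The Sf3b6 window holds the ETS core on both strands and the Hnrnpab window holds CCAAT at 2 places. The windows of Snrpa1 and Srsf6 hold neither motif. Among the 6 genes with a probe set called higher in tumor than in control crypts, 1 (Sf3a3) had the ETS core and 2 (Hnrnpab and Snrpd3) had CCAAT in the 250 bases.

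The deposited values are MAS5 intensities, a brightness on a linear scale in which each array's trimmed mean was near 500.2. A probe set was tested if it was above its array's median on at least 2 arrays, which 12146 probe sets met. Among the members 103 passed, 99 of them on all 6 arrays, and none passed through tumor arrays alone. The 12 that did not pass include the only member of Snrpn, 1432096_at, which read from 2.26 to 15.5 and codes for the neuronal Sm protein. Differences are of log2(intensity + 17.7), fitted with limma over all tested probe sets, and a probe set is called where its Benjamini-Hochberg adjusted p is under 0.05. A probe set's brightness depends on its probes as well as on the RNA, so levels of different probe sets are not ranked. Mean intensities over the 6 arrays lay between 56.0 and 5176 for SR probe sets (Srsf2 1427816_at and Srsf1 1434972_x_at), 40.2 and 8097 for hnRNP (Hnrnpab 1459880_at and Hnrnpf 1456664_x_at), 7.67 and 9256 for snRNP (Snrpn and Snrpe 1451294_s_at), 57.5 and 920.0 for SF3A (both Sf3a2), and 9.26 and 3776 for SF3B probe sets (Sf3b5 1439370_x_at and Sf3b6 1417054_a_at).

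Several facts of the arrays bear on every comparison. Epithelial markers such as Epcam and Cdh1 were bright on all arrays, and the summed intensity of 10 epithelial markers was 73883 to 76808 on tumor, 78286 to 89151 on DSS and 73191 to 80194 on control arrays. Summed leukocyte markers (13 genes) read 4380 and 20046 on tumor arrays, 566 and 1967 on DSS arrays and 818 and 1560 on control arrays, and fibroblast markers (13 genes) 5408 and 16310, 3693 and 6782, and 2849 and 5460 in the same order of groups, so tumor replicate 2 stands apart for both. Vim carries much of the fibroblast sum: without it the sums were 1930 and 9898 on tumor arrays, 3260 and 5817 on DSS arrays and 2561 and 4661 on control arrays, so tumor replicate 1 lay below both controls. Of 11 tested fibroblast markers 7 were negative in tumor minus control, with a list median of -0.46. The 2 that were called, Vim (3.25) and Fn1 (2.34), were both higher in tumor, and 0 were called lower. The 3 leukocyte markers called higher in tumor were the myeloid genes Lyz2 (3.89), S100a8 (6.43) and S100a9 (5.29 on the log2 scale). S100a8 and S100a9 were above the median on tumor arrays only, so they passed the filter through tumor alone. With Lyz2 they make up most of the leukocyte sum on tumor arrays. There Lyz2 read 2755 and 5154, S100a8 698 and 6638, and S100a9 281 and 4555. No other leukocyte marker was called. No listed marker was at exactly 0, and Ptprc, the pan-leukocyte marker, read 73.4 and 415 on tumor arrays, 82.7 and 225 on DSS arrays and 165 and 207 on control arrays. Smooth muscle markers (7 genes) summed to 827 and 1706 on tumor arrays, 1777 and 3867 on DSS arrays and 1364 and 4072 on control arrays. Endothelial markers (8 genes) summed to 399 and 1109 on tumor, 235 and 489 on DSS and 213 and 433 on control arrays. Genes of dividing cells summed to 26970 and 27771 on tumor arrays, 11865 and 11442 on DSS arrays and 14281 and 12600 on control arrays, and 17 of 18 tested were called higher in tumor than in control crypts (12 with centred arrays). Actin probe sets at the 3′ end exceeded those at the 5′ end, a gap that widens as RNA is degraded, by a log2 ratio of 0.95 and 1.04 on tumor arrays and 1.20 to 1.63 on the others. The part of these in the differences below was not tested. In pooled crypts, fewer cells of a type and less RNA per cell cannot be told apart.

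Tumor crypts were compared with control crypts to find which splicing genes differ in adenoma. A small set rose: 10 of 103 tested probe sets (9.71%), in 6 genes, were called higher and none was called lower. Over all 12146 probe sets 19.6% were called, 11.2% as higher and 8.33% as lower, so the share of members called higher is near that of the array. The called genes are Srsf6, Hnrnpab, Hnrnpu, Snrpa1, Snrpd3 and Sf3a3. They rose by 0.54 to 0.94 on the log2 scale, and no tested member moved by more than 1 in either direction, where 12.6% of all tested probe sets did. The median member difference was 0.22, against 0.03 for all tested probe sets, with 76 of 103 members positive. At an unadjusted p under 0.05, 26 of 103 members were higher (25.2%) and 0 lower, against 18.9% and 15.4% of all tested probe sets. Tumor and control arrays did not overlap for 46 members that were higher in tumor (all tested probe sets, 32.8%) and for 3 that were lower (27.1%).

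**Figure D1:**
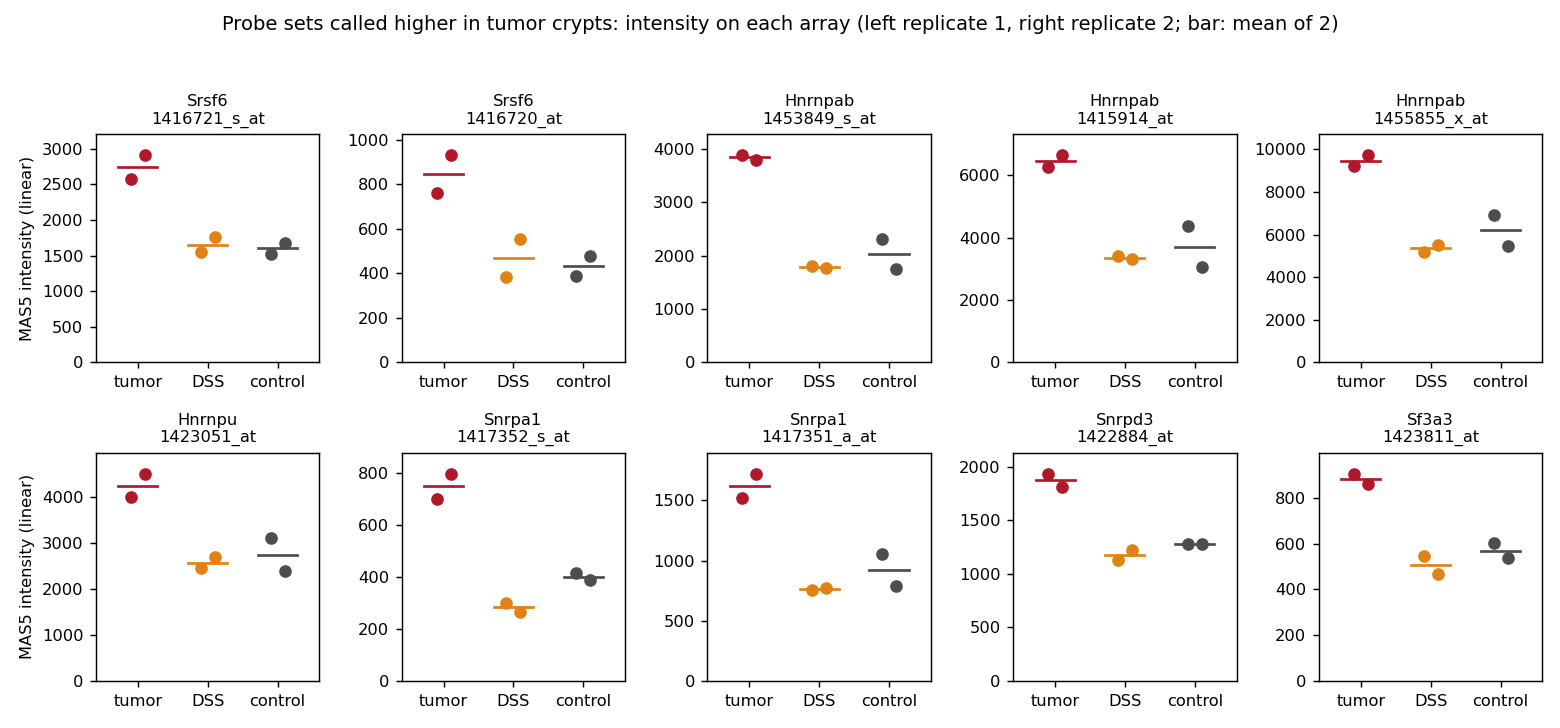
Each panel plots 1 of the 10 probe sets called higher in tumor than in control crypts, with the MAS5 intensity (linear, from 0) of every array as points, replicate 1 left and replicate 2 right, and a bar at the mean of 2. Both tumor points lie above all DSS and control points in every panel. Centring each array on its median lowers every difference by 0.25. That leaves the 10 between 0.29 and 0.69, with 1 of them still called.

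The sign of the SR, hnRNP and SF3B medians depends on the scaling of the arrays, that of the snRNP and SF3A medians does not under the 3 scalings run. Tumor arrays had a higher median intensity (112 and 131) than DSS arrays (94.2 and 106) and control arrays (96.8 and 101.0), a shift of 0.25 on the log2 scale between tumor and control. With each array centred on its median, all probe sets tested had a median difference of -0.21 and the members -0.03, 7.13% of all probe sets were called higher and 13.7% lower, and among the members 1 was called higher (Srsf6 1416720_at, 0.69 ± 0.22 SE, adjusted p = 0.0477) and 1 lower (Srsf3 1434512_x_at, -0.85, adjusted p = 0.0427). Relative to the median of all probe sets tested, the members stood at 0.19 as deposited and at 0.27 after quantile normalization. Centring moves every probe set by the same amount and so leaves the first value as it is. On this relative scale the median of each family was above 0 under all 3 scalings. The values below are on the deposited scale.

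**Figure D2:**
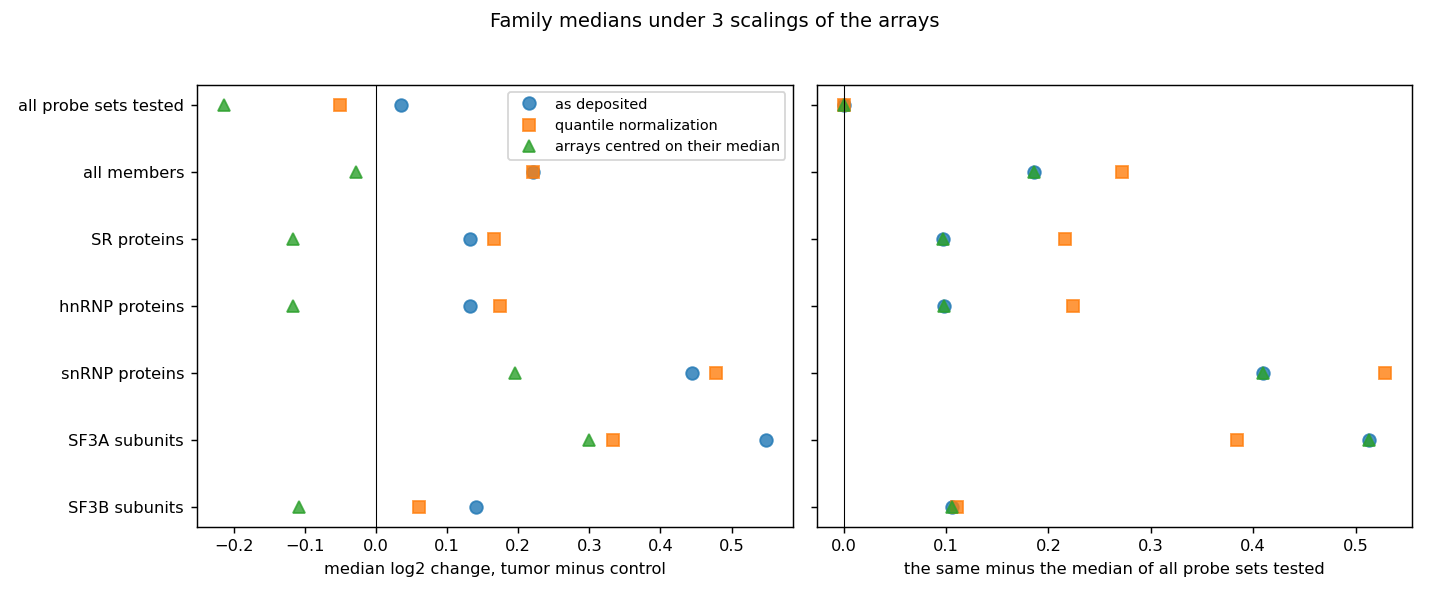
The median log2 difference of tumor minus control is plotted for each family (left) and after subtraction of the median of all probe sets tested (right), for the values as deposited, quantile normalized and centred on each array's median. On the left, medians of SR, hnRNP and SF3B probe sets fall below 0 when arrays are centred, at -0.12, -0.12 and -0.11. Those of snRNP and SF3A probe sets are above 0 there under each of the 3 scalings. On the right, every family median is above 0 under each scaling. SR, hnRNP and SF3B stand at 0.10, 0.10 and 0.11 as deposited and centred, and at 0.22, 0.22 and 0.11 after quantile normalization.

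Among the SR proteins, 2 of 27 tested probe sets were called, both of Srsf6, which codes for a regulator of alternative exons. Srsf6 1416721_s_at read 2578 and 2913 on tumor arrays, 1545 and 1759 on DSS arrays and 1529.6 and 1680.5 on control arrays. Both tumor arrays were above the other 4, which lay close together. The difference was 0.77 ± 0.16 (SE, n = 2 each, adjusted p = 0.0152), or 1.71 times the control mean. The second, 1416720_at, read 764 and 932 on tumor arrays, 384 and 554 on DSS arrays and 390.2 and 477 on control arrays, a difference of 0.94 ± 0.23 (adjusted p = 0.0251). The third Srsf6 probe set, 1448454_at, read 3181 and 3812 on tumor arrays and 3163 and 3191 on control arrays, with a difference of 0.13 that did not pass (adjusted p = 0.617). Thus the gene's probe sets differ from each other by 0.81 on the log2 scale.

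No other SR gene was called. Srsf1, which codes for the founding member of the family, had 6 tested probe sets with differences of -0.03 to 0.40, and its 1434972_x_at read 6111 and 6327 on tumor arrays, 4265 and 4361 on DSS arrays and 5405 and 4586 on control arrays (0.32 ± 0.15, adjusted p = 0.169). It passed after quantile normalization (0.47, adjusted p = 0.0404). For Srsf2, an enhancer-binding SR protein, 1427504_s_at differed by 0.10 (adjusted p = 0.680), with 4461 and 4249.8 on tumor and 4352 and 3779 on control arrays, which overlap. The 3 tested probe sets of Srsf2 lay between 0.06 and 0.45. Srsf3, the smallest SR protein and an mRNA export adaptor, had 6 tested probe sets that pointed both ways. Its 1434512_x_at read 1314 and 1518 on tumor arrays, 832 and 1605 on DSS arrays and 2171 and 2147 on control arrays (-0.61 ± 0.28, adjusted p = 0.171), while the other 5 lay between -0.12 and 0.21. The median of the 27 SR probe sets was 0.13 (-0.12 with centred arrays), with 19 positive.

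Among the hnRNP proteins, 4 of 46 tested probe sets were called, 3 of Hnrnpab and 1 of Hnrnpu. Hnrnpab codes for an RNA- and DNA-binding protein of the A/B type. Its 1453849_s_at read 3888 and 3799.8 on tumor arrays, 1809 and 1770.5 on DSS arrays and 2320.1 and 1756 on control arrays. The tumor values exceeded every other array, and the difference from control was 0.92 ± 0.17 (adjusted p = 0.00942), or 1.89 times. Hnrnpab 1415914_at read 6255 and 6642 on tumor arrays against 4359 and 3067 on control arrays (0.81 ± 0.19, adjusted p = 0.0211), and 1455855_x_at read 9212 and 9727 against 6924 and 5462 (0.62 ± 0.16, adjusted p = 0.0304). The 2 control arrays of these probe sets lay further apart than the 2 tumor arrays. Hnrnpab 1448144_at had a difference of 0.58 (adjusted p = 0.0656) and 1426114_at of 0.14 (adjusted p = 0.688).

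Hnrnpu codes for the scaffold attachment factor that binds chromatin and nascent RNA. Its 1423051_at read 3985 and 4504 on tumor arrays, 2444 and 2697 on DSS arrays and 3110.4 and 2378 on control arrays. Both tumor arrays were higher than the others (0.64 ± 0.18, adjusted p = 0.0421). The gene had the widest spread among its 5 tested probe sets, since 1434390_at read 154 and 290.1 on tumor arrays against 179 and 401 on control arrays, a difference of -0.32 that did not pass. No gene with several tested probe sets spanned more than its 0.96 on the log2 scale.

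The most studied hnRNP genes did not pass. For Hnrnpa1, which represses splice sites, 1436549_a_at read 1719 and 2065 on tumor arrays, 2040.0 and 2261 on DSS arrays and 1597 and 2203 on control arrays, which overlap (0.01 ± 0.20). The other tested probe set of Hnrnpa1 stood at 0.40 and was not called. Hnrnpa2b1, its close relative, read 8573 and 8461 on tumor arrays against 7647 and 6517 on control arrays at 1420365_a_at (0.27 ± 0.15, adjusted p = 0.238). Hnrnpk, a binder of C-rich RNA, read 8067 and 7764 against 7168 and 6429 at 1460547_a_at (0.22 ± 0.14, adjusted p = 0.307). Its tumor and control arrays do not overlap, but the difference did not pass the adjusted threshold. The 4 tested probe sets of Hnrnpa2b1 lay between -0.11 and 0.27, and the 4 of Hnrnpk between -0.19 and 0.37, with none called. Hnrnpl, which binds CA repeats, read 1472 and 1705 on tumor arrays against 1304 and 993 on control arrays (0.47 ± 0.20, adjusted p = 0.147), and its paralog Hnrnpll, known for CD45 splicing in lymphocytes, 2062 and 1910.2 against 1771 and 1589.8 at 1425255_s_at (0.24 ± 0.16, adjusted p = 0.322). After quantile normalization Hnrnpa2b1 (adjusted p = 0.0297) and Hnrnpk (adjusted p = 0.0307) passed. The median of the 46 hnRNP probe sets was 0.13 (-0.12 with centred arrays), with 32 positive.

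The snRNP proteins had 3 of 11 tested probe sets called, and all 11 differences were positive. Snrpa1 codes for the A-prime protein of the U2 snRNP. Its 1417352_s_at read 701 and 798 on tumor arrays, 299.7 and 267 on DSS arrays and 415 and 388 on control arrays. The 3 groups do not overlap, with tumor highest, control between and DSS lowest. The tumor minus control difference was 0.87 ± 0.18 (adjusted p = 0.0127), or 1.87 times. Snrpa1 1417351_a_at read 1519 and 1724 on tumor arrays, 754 and 771 on DSS arrays and 1052 and 789.8 on control arrays (0.82 ± 0.19, adjusted p = 0.0218), again with no overlap. The third Snrpa1 probe set, 1417353_x_at, differed by as much (0.88 ± 0.30) but did not pass (adjusted p = 0.0750), with control arrays at 724 and 371.

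Snrpd3, which codes for a protein of the Sm ring, was called at 1 of 3 probe sets, the other 2 being below the filter. Snrpd3 1422884_at read 1937 and 1816 on tumor arrays, 1126 and 1226 on DSS arrays and 1283 and 1284 on control arrays, a difference of 0.54 ± 0.15 (adjusted p = 0.0439). Of the other Sm genes, Snrpb had a difference of 0.71 ± 0.27 (adjusted p = 0.101), Snrpe of 0.27 ± 0.16 (adjusted p = 0.266) and the 2 probe sets of Snrpg of 0.33 and 0.31. Snrpc of the U1 snRNP stood at 0.42 ± 0.15 (adjusted p = 0.0961). The snRNP median was 0.44, and 0.20 with centred arrays, and by array number it was 0.58 for tumor 1 minus control 1 and 0.35 for tumor 2 minus control 2. On the centred scale 10 of the 11 were positive and none was called.

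Of the SF3A subunits, Sf3a3 was called at 1 of its 2 probe sets. Sf3a3 1423811_at read 906 and 859 on tumor arrays, 546 and 466 on DSS arrays and 601 and 536 on control arrays (0.62 ± 0.17, adjusted p = 0.0414, 1.55 times). After quantile normalization it was not called (0.54, adjusted p = 0.0799). Its 1432488_a_at read 301 and 207 on tumor arrays against 176 and 155 on control arrays (0.55 ± 0.25, adjusted p = 0.167). Both show the tumor arrays above the others. Sf3a1 1449333_at read 399 and 588 on tumor arrays, 363 and 436 on DSS arrays and 519 and 307 on control arrays, with overlap and a difference of 0.27 (adjusted p = 0.557). Sf3a2 1455546_s_at read 898 and 1549 on tumor arrays against 974 and 644 on control arrays (0.56 ± 0.30, adjusted p = 0.225). The SF3A median was 0.55 (0.30 centred) and varied between pairs of arrays. It was 0.02 for tumor 1 minus control 1 and 0.86 for tumor 2 minus control 2. For tumor 1 minus control 2 it was 0.47, and for tumor 2 minus control 1 it was 0.50.

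No SF3B probe set was called among 14 tested (5 had an unadjusted p under 0.05, all higher, where 18.9% of all tested probe sets were higher at this level). The smallest adjusted p was that of Sf3b3, a scaffold subunit, at 0.0630, where 1415985_at read 510.0 and 902 on tumor arrays, 384 and 509 on DSS arrays and 391 and 331 on control arrays (0.88 ± 0.28). Sf3b2 1456040_at read 195 and 170.3 on tumor arrays, 125 and 125 on DSS arrays and 120.0 and 84.9 on control arrays (0.75 ± 0.25, adjusted p = 0.0688), and the other 3 Sf3b2 probe sets differed by 0.39 to 0.53. Sf3b1 codes for the subunit that clamps the branch point and is a known target of mutation in blood cancers. It showed -0.13 to 0.04 over 3 probe sets, and 1449138_at read 2468 and 2942 on tumor arrays, 2823 and 3199 on DSS arrays and 2616 and 3317 on control arrays. These groups overlap. The SF3B median was 0.14 (-0.11 centred), with 9 of 14 positive.

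**Figure D3:**
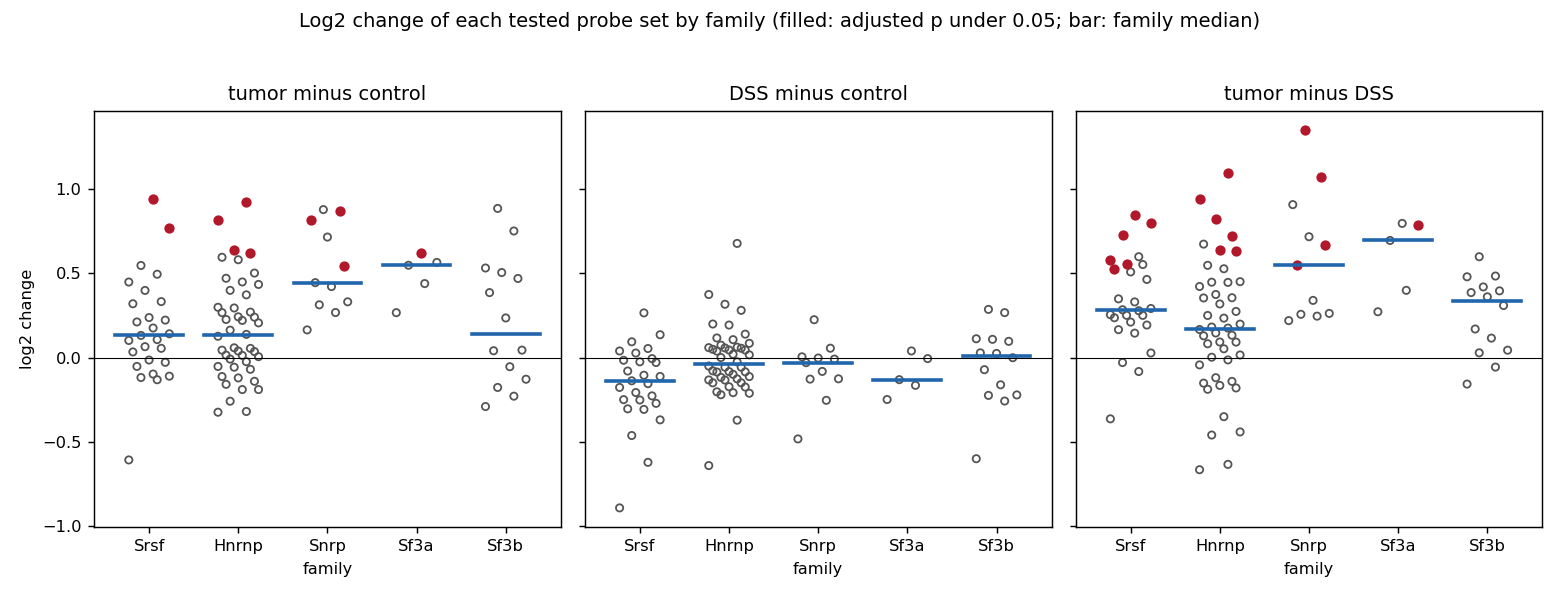
Points are the log2 differences of the 103 tested probe sets by family, with 1 panel per comparison, filled where the adjusted p is under 0.05, and bars are family medians, on the deposited scale. In tumor minus control the filled points lie between 0.54 and 0.94, in DSS minus control there is none, and in tumor minus DSS they reach 1.35. With centred arrays the SR, hnRNP and SF3B medians of tumor minus control are below 0, and that of all tested probe sets is -0.21.

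The probe sets of 1 gene often disagreed. Of the 27 genes with over 1 tested probe set, 15 had probe sets that differed in call (5 genes) or in sign (11 genes) in tumor minus control, and the median spread within a gene was 0.28. The 5 widest were Hnrnpu (-0.32 to 0.64), Srsf3 (-0.61 to 0.21), Srsf6 (0.13 to 0.94), Hnrnpab (0.14 to 0.92) and Srsf10 (-0.13 to 0.55). No gene with several tested probe sets had all of them called, and Snrpd3 had its only tested one. By Affymetrix naming, probe sets ending in _s_at or _x_at can also hybridise to other transcripts. They made up 30 of the 103 tested and 4 of the 10 called, so the values of those 4 may include related genes.

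**Figure D4:**
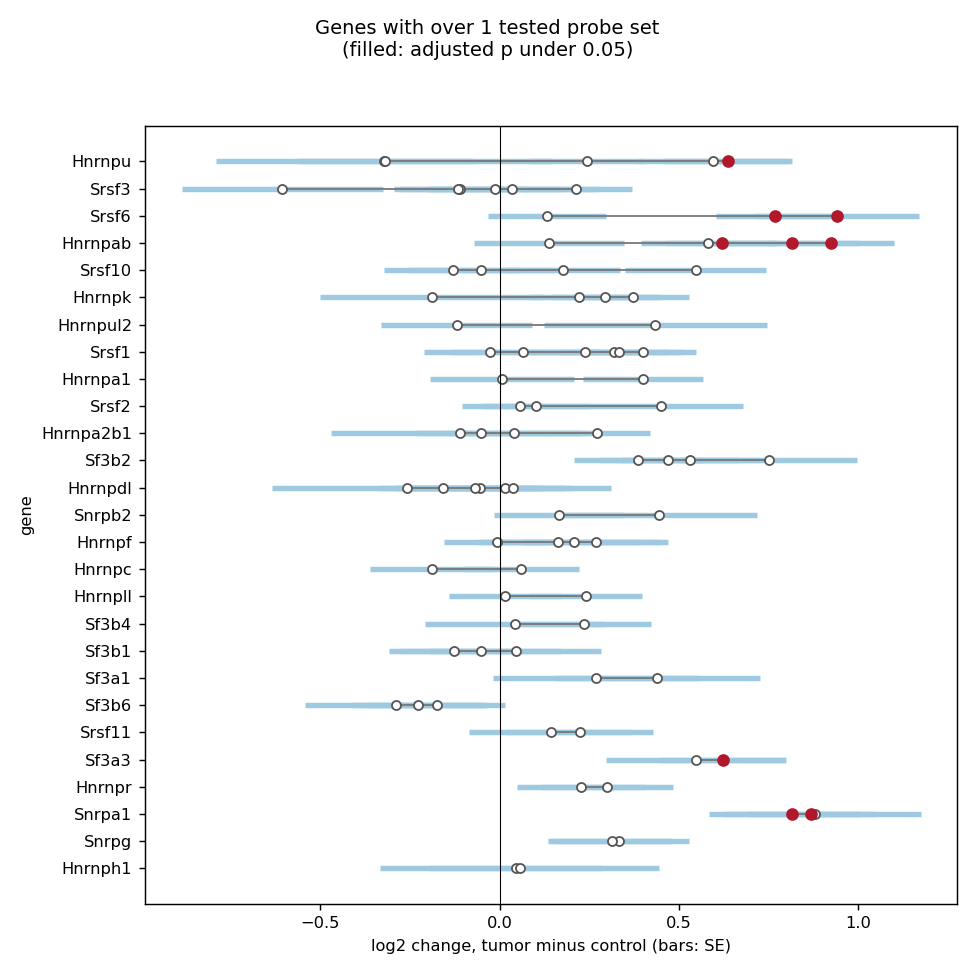
Each row is a gene with over 1 tested probe set, each point the log2 difference of tumor minus control of 1 probe set with its SE (light blue bar), filled where the adjusted p is under 0.05, and a grey line joins the probe sets of the gene. Hnrnpu, Srsf3, Srsf6 and Hnrnpab have the widest lines, at 0.96, 0.82, 0.81 and 0.78, and the 3 points of Snrpa1 lie close together. Centring the arrays lowers every point by 0.25.

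The tumor calls depended on single arrays. Without control replicate 2, 1 call was left (Srsf6 1416721_s_at, 0.83), and without tumor replicate 2 also 1 (Hnrnpab 1453849_s_at, 0.94). Counts were 6 without tumor replicate 1 or DSS replicate 1, 7 without DSS replicate 2 and 10 without control replicate 1. Of these last 10 only 6 are among the 10 called with all arrays, since both Srsf6 probe sets, Snrpd3 and Sf3a3 dropped out, while Snrpa1 1417353_x_at, Srsf9, Snrpb and Hnrnpu 1450849_at entered. The differences of the 10 called probe sets kept their sign. This was fixed in advance, since for each of them both tumor arrays lay above both control arrays. For Srsf6 the difference lay between 0.68 and 0.85 at 1416721_s_at and between 0.80 and 1.08 at 1416720_at, for Hnrnpab 1453849_s_at between 0.72 and 1.12, for Snrpa1 1417352_s_at between 0.78 and 0.96, for Snrpd3 between 0.50 and 0.59 and for Sf3a3 between 0.54 and 0.70. The spread was over 1.5 times for Hnrnpu 1423051_at (0.44 to 0.83), Hnrnpab 1453849_s_at, Hnrnpab 1415914_at (0.56 to 1.07), Hnrnpab 1455855_x_at (0.45 to 0.79) and Snrpa1 1417351_a_at (0.61 to 1.02).

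DSS crypts were set against control crypts to see the genes under early injury, at day 2. No member was called by limma, and none of the 12146 probe sets was called either (0%), with a smallest adjusted p of 0.226 over all and 284 probe sets under an unadjusted p of 0.05. Among the members 5 had an unadjusted p under 0.05 (4.85%), all lower in DSS. Over all tested probe sets 1.45% were lower and 0.89% higher at this level. The median member difference was -0.06 (all tested 0.00), with 64 of 103 negative. SR probe sets had a median of -0.14 with 21 of 27 negative, and DSS and control arrays did not overlap for 11 of 27 that were lower in DSS (14.2% of all tested) and for 2 that were higher (12.4%). By array number the SR median was -0.14 for DSS 1 minus control 1 and -0.05 for DSS 2 minus control 2. Control replicate 1 and DSS replicate 1 had brighter labelling spike-ins (means of 948 on DSS 1 and 631 on control 1, against 244 to 307 on the other 4 arrays), and their part was not tested.

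The members of smallest p in DSS minus control are given as values. Srsf10, a splicing repressor when dephosphorylated, read 834 and 778 on DSS arrays against 1309 and 1189 on control arrays at 1423982_at, a difference of -0.62 with no overlap (unadjusted p = 0.0044 in limma, adjusted p = 1.00). Srsf3 1434512_x_at had 832 and 1605 on DSS arrays against 2171 and 2147 on control arrays (-0.89), with the DSS arrays far apart. Hnrnpdl, a relative of hnRNP D, read 812 and 881 on DSS arrays against 367 and 741 on control arrays at 1428225_s_at (0.68), and Hnrnpa2b1 1434047_x_at read 1988 and 2150.2 against 2489 and 2880.5 (-0.37). In both the groups were apart, in opposite directions. With 1 array left out in turn the Hnrnpdl difference lay anywhere between 0.19 and 1.17, and that of Srsf3 1434512_x_at between -1.36 and -0.42. These probe sets are the most extreme of their genes. The 4 tested ones of Srsf10 ranged from -0.62 to -0.0054 and the 6 of Srsf3 from -0.89 to -0.11. Signs differed among the 6 of Hnrnpdl (-0.17 to 0.68) and the 4 of Hnrnpa2b1 (-0.37 to 0.04). Snrpa1 showed -0.48 at 1417352_s_at and -0.25 at 1417351_a_at, Sf3a3 -0.25 at 1432488_a_at and -0.16 at 1423811_at, and Sf3b6, a subunit near the branch point, -0.60 at 1436681_x_at (-0.93 to -0.27 with 1 array left out) and -0.26 at 1417054_a_at. Genes of a fixed list are given at their brightest tested probe set. There Srsf1 1434972_x_at stood at -0.21, Srsf2 1427504_s_at at -0.18 and Srsf3 1416150_a_at at -0.14. Hnrnpa1 1436549_a_at stood at 0.19, Hnrnpa2b1 1420365_a_at at -0.08, Hnrnpk 1460547_a_at at 0.05, Hnrnpl at -0.06 and Hnrnpll 1425255_s_at at 0.11. Sf3a1 1449333_at stood at -0.01 and Sf3b1 1449138_at at 0.03. With a median SE of 0.19 over the members, differences of this size were not detectable with 2 arrays a group. For some of these genes other probe sets lay further from 0. The 4 tested ones of Hnrnpk ranged from -0.64 to 0.05, and the 2 of Hnrnpa1 from 0.19 to 0.32.

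Tumor crypts were also set against DSS crypts. This comparison shares its tumor arrays with tumor minus control and its DSS arrays with DSS minus control, so it is no separate evidence. Here 17 of 103 members, in 10 genes, were called higher and 0 lower, where over all tested probe sets 23% were called, 13.3% as higher and 9.74% as lower. The median member difference was 0.27 (0.04 with centred arrays). Tumor and DSS arrays did not overlap for 59 members higher in tumor (all tested probe sets, 34.5%) and for 5 lower (30.1%). All 10 probe sets called against control were called here too, and the 7 others belong to Srsf1 (3), Srsf10, Hnrnpab, Hnrnph2 and Snrpc. Srsf10 1423982_at read 1419 and 1404 on tumor arrays against 834 and 778 on DSS arrays (0.80, adjusted p = 0.0101). Its tumor values also lay above the control values of 1309 and 1189, but by 0.18, which did not pass. The 4 tested Srsf10 probe sets differed between tumor and DSS by 0.25 to 0.80, and only 1 was called. The called Srsf1 probe sets differed by 0.53 to 0.58, with 1428099_a_at at 6291 and 6330.4 on tumor arrays against 4379.5 and 4217 on DSS arrays (adjusted p = 0.0332).

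Hnrnph2, which binds runs of G, read 1978 and 2249 on tumor arrays against 1209 and 1515 on DSS arrays (0.63, adjusted p = 0.0358), and Snrpc 1470.4 and 1362 against 949.6 and 974 (0.55, adjusted p = 0.0380). The member furthest from 0 was Snrpa1 1417352_s_at, at 1.35 (adjusted p = 0.00166, 2.65 times), followed by Hnrnpab 1453849_s_at at 1.09 (adjusted p = 0.00405) and Snrpa1 1417351_a_at at 1.07 (adjusted p = 0.00648). Srsf6 1416721_s_at stood at 0.73, Hnrnpu 1423051_at at 0.72, Snrpd3 1422884_at at 0.67 and Sf3a3 1423811_at at 0.79. No SF3B probe set was called, and the 2 of smallest p were Sf3b5 1451185_at at 0.48 (adjusted p = 0.113) and Sf3b2 1456352_a_at at 0.42 (adjusted p = 0.158). With centred arrays 3 were called higher (both Snrpa1 probe sets and Hnrnpab 1453849_s_at) and 1 lower, Hnrnpdl 1428225_s_at at -0.90. Over all tested probe sets 8.04% were then called higher and 14.6% lower. Without DSS replicate 1 the count was 3, without DSS replicate 2 it was 5 and without tumor replicate 2 it was 4.

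Other splicing genes, from 4 lists, were read from the same fit of tumor minus control. In the order below, 9.30%, 6.25%, 6.25% and 15.2% of their tested probe sets were called higher. Over all tested probe sets 11.2% were called higher and 8.33% lower, so only the last list had a larger share higher. Of 86 tested probe sets of other core spliceosome genes 8 were called higher and 1 lower, with a median of 0.24 (-0.00466 with centred arrays). Eftud2, the GTPase of the U5 snRNP, read 1909 and 2568 on tumor arrays, 881 and 758 on DSS arrays and 1098 and 711 on control arrays (1.31 ± 0.25, adjusted p = 0.00930). Prpf19, a ubiquitin ligase of the active spliceosome, rose by 0.81 and Prpf31, which joins the tri-snRNP, by 0.76. Snrnp25, a protein of the minor spliceosome, read 806 and 663 on tumor arrays against 1252 and 1542 on control arrays (-0.91 ± 0.18, adjusted p = 0.0124). In snRNP assembly 1 of 16 was called higher, Prmt5 (0.91), the enzyme that methylates Sm proteins, and the median was 0.14 (-0.11 centred). Among SR protein kinases and coactivators 4 of 64 were called higher, all of Rnps1 (0.95 at 1448324_at), an exon junction protein, with a median of 0.02 (-0.23 centred). Among other splicing regulators 10 of 66 were called higher and 0 lower, with a median of 0.34 (0.10 centred), and those of smallest p were Cirbp (1.00), a cold-inducible RNA-binding protein, Fubp1 (0.88) and Ilf2 (0.87), although the differences of this list reached 1.79. On centred arrays the counts higher and lower were 2 and 1, 0 and 0, 1 and 2, and 3 and 0 for the 4 lists in this order. On that scale 7.13% of all tested probe sets were called higher and 13.7% lower. In DSS minus control none of the 4 lists had a call by limma.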

How the data were processed

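The deposited intensities are MAS5 signals per probe set, with MAS5 named per the submitters' processing notes, without a version. The trimmed mean of each array, with the highest and lowest 2% left out, was 500.2, as computed from the deposited table. Of 22690 probe sets, 64 controls were set aside. Among the other 22626, 20380 had 1 symbol, 691 several and 1555 none in the platform annotation. The deposited intensity carries no detection call, and the number of arrays limits the precision.

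From these, log2(intensity + 17.7) was computed, where 17.7 is the 25th percentile of all values, with no further normalization. A limma model (version 3.58.1 under R 4.3.3, eBayes with an intensity trend) covered the 3 groups at each probe set, with 2-sided tests and Benjamini-Hochberg adjustment over 12146 probe sets at 0.05. The fit was tested on simulated data. Figures were drawn with matplotlib 3.10.9. Named are the called probe sets of smallest p per family and comparison, up to 5 per direction (or 2 where none was called), 13 fixed genes, up to 5 genes whose probe sets disagreed most, the brightest and dimmest probe set per family, and up to 3 called genes per direction of each of 4 lists of other splicing genes. Snrpa and Snrpd1 of the fixed genes had no probe set for them alone. The members, lists and tests were chosen with earlier results of these data known. Alternatives covered the scaling, pseudocount, filter, choice of probe sets, trend, groups in the fit, replicate block and each array left out.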

Additional observations from a re-analysis of the deposited data

How the results depend on the processing

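In tumor minus control, 10 members were called and the median was 0.22. The count was 17 after quantile normalization (9 of them among the 10, with Sf3a3 at adjusted p = 0.0799 lost), 5 with no filter, 4 with 1 probe set a gene, 4 with the mean over a gene's probe sets, 6 without probe sets ending in _s_at or _x_at, and 2 with centred arrays, where the median was -0.028 and 1 was higher and 1 lower. In tumor minus DSS, 17 were called and the median was 0.27. The count was 11 with no filter, 8 with 1 probe set a gene, 8 with the mean, 11 without _s_at or _x_at probe sets, 11 with no intensity trend, and 4 with centred arrays, where the median was 0.039. It was 22 after quantile normalization (15 of them among the 17, with Snrpc at adjusted p = 0.0592 and Hnrnpab 1448144_at at 0.0729 lost), 20 with the stricter filter and 20 with only tumor and DSS in the fit. The settings with 1 value a gene and those without _s_at or _x_at test fewer members by construction. Across the arrays left out in turn, counts lay between 1 and 10 in tumor minus control and between 3 and 20 in tumor minus DSS, and medians between 0.18 and 0.23 and between 0.27 and 0.34. A lone array left in a group was assumed to vary like the others. Over all tested probe sets, quantile normalization called 10.1% higher and 10.4% lower in tumor minus control, and 11.5% and 11.7% in tumor minus DSS. Centred arrays called 7.13% and 13.7%, and 8.04% and 14.6%, in the same order. For the other settings, the replicate block among them, the counts are of members only. Moves of the members are there not set apart from moves of the whole array. The cause of these moves was not tested. The pseudocount, the stricter filter and the filter on the mean left the tumor minus control count at 10, and DSS minus control had 0 calls under each alternative run.

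With the replicate number as a block, calls were 14, 0 and 21 (20 higher and 1 lower) in tumor minus control, DSS minus control and tumor minus DSS. The labels do not say that a number pairs samples. Deviations of same-numbered arrays correlated at 0.48 between DSS and control, 0.13 between tumor and control and 0.47 between tumor and DSS, over only 2 numbers. Log2 values of same-numbered DSS and control arrays correlated at 0.983 (number 1) and 0.987 (number 2). The 2 control arrays correlated at 0.970 and the 2 DSS arrays at 0.977, so both were less alike. What same-numbered arrays share was not tested.

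Fixed genes near 0, each at its brightest tested probe set, changed sign. In tumor minus control with centred arrays, Srsf2 was at -0.15, Srsf3 at -0.037, Hnrnpa1 at -0.24, Hnrnpk at -0.028 and Hnrnpll at -0.00873. Leaving out arrays, Hnrnpa1 lay between -0.22 and 0.24, Sf3a1 between -0.10 and 0.63 and Sf3b1 between -0.30 and 0.043. In DSS minus control Sf3a1 was at 0.00840 after quantile normalization. Leaving out arrays there, Hnrnpa1 lay between -0.037 and 0.42, Hnrnpa2b1 between -0.20 and 0.031, Hnrnpk between -0.033 and 0.12, Hnrnpl between -0.25 and 0.14, Sf3a1 between -0.37 and 0.36 and Sf3b1 between -0.14 and 0.20. In tumor minus control, quantile normalization brought Srsf1 1434972_x_at (0.47, adjusted p = 0.0404), Hnrnpa2b1 1420365_a_at (0.47, adjusted p = 0.0297) and Hnrnpk 1460547_a_at (0.42, adjusted p = 0.0307) past the threshold. Sf3b3 passed with the replicate block (adjusted p = 0.0392) and without tumor replicate 1 (adjusted p = 0.0172), and Sf3b2 1456040_at with the block (adjusted p = 0.0423) and with no intensity trend (adjusted p = 0.0445).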
